A study of Homo sapiens with 12 samples.

Results

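MHC class II and its regulators were followed here as 10 genes taken by their symbols. They are CIITA, RFX5 and RFXAP, which control the family, CD74, the invariant chain, and the chains HLA-DRA, HLA-DRB1, HLA-DPA1, HLA-DPB1, HLA-DMA and HLA-DMB. All 10 stood among the 56508 symbols of the deposited expression table, and 6 of them were among the 15456 genes that reached a level of 1 in at least 3 libraries and were tested. The libraries came from 2 established lines of human small cell lung cancer, H82 and H211, exposed to ORY-1001 or vehicle. ORY-1001 inhibits LSD1, the product of KDM1A, which takes methyl groups off histones. The groups were H82 with ORY-1001 at 1 µM, H82 with vehicle (labelled PBS), H211 with ORY-1001 at 1 µM and H211 with vehicle, each with 3 libraries, 12 in all. Every sample carries the genotype label WT. The sample labels give 7 days of exposure and the treatment protocol gives 10, which was not settled here. One line stands for each background, and nothing says that the replicates were separate cultures, so each p-value reflects the spread among the libraries alone, which may be technical.

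MHC class II molecules present peptides from the endosomal route to CD4+ T cells. Their expression is normally limited to antigen-presenting cells such as B cells, dendritic cells and macrophages, and interferon gamma can switch it on in other cells through CIITA, the class II transactivator. CIITA binds no DNA itself. It is recruited to class II promoters by the RFX complex (RFX5, RFXAP and RFXANK), by CREB family factors and by NF-Y, which sit on the X, X2 and Y boxes. CD74 occupies the peptide groove of new class II molecules, and the DM dimer later exchanges its remnant for a peptide.

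All levels are the deposited rescaled TPM, a unit that allows for gene length, and log2 fold changes were taken on log2(TPM + 1), which understates the change of low genes. Tests are from one limma fit over all 12 libraries with Benjamini-Hochberg adjustment over all tested genes, and a gene is called at an adjusted p under 0.05. KDM1A was at 190 ± 8.17 in H82 with ORY-1001 and 184 ± 2.43 in H82 controls, and at 188 ± 4.68 in H211 with ORY-1001 and 185 ± 2.57 in H211 controls (SD, n = 3 each). NEUROD1 marked H82 (1.69 ± 0.366 in H211 controls, 137 ± 2.16 in H82 controls) and POU2F3 marked H211 (281 ± 3.91 in its controls, 2.31 ± 0.478 in H82 controls). Blood-cell transcripts set single libraries apart. With libraries numbered by replicate, LYZ, the lysozyme of myeloid cells, was at 15.98 in treated H82 library 1, at 18.69 in treated H82 library 2, at 16.05 in treated H211 library 3 and at 22.99 in H211 control 2. It stayed between 0.198 and 0.583 in the other 8 libraries. No read counts were used, so the depth behind each value is unknown.

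CIITA (chromosome 16, 10866222 to 10943021 on GRCh38) was close to 0 everywhere, and no treated library of either line exceeded 0.0446. In H82 with ORY-1001 it was at 0.0408, 0.0429 and 0.0214, against 0.0405, 0.0347 and 0 in H82 controls. In H211 with ORY-1001 it was at 0.00699, 0.0446 and 0.00554, against 0.0502, 0.271 and 0.172 in H211 controls. The H82 groups overlapped, while all 3 treated H211 libraries lay below all 3 controls. CIITA failed the filter on low values. With no filter its log2 fold change was 0.014 in H82 (limma adjusted p = 1) and -0.19 in H211 (adjusted p = 0.0798), and H211 controls lay above H82 controls by 0.18 (adjusted p = 0.0238). Its highest value was in H211 control 2, one of the 4 libraries with high LYZ. On GENCODE release 29 the locus overlaps DEXI and an antisense transcript, and no source used here says whether counting used strand.

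NLRC5, the class I counterpart of CIITA, did respond. It was at 5.17, 5.55 and 6.29 in H82 with ORY-1001, against 0.0531, 0.214 and 0.0707 in H82 controls. In H211 it was at 21.7, 21.8 and 19.9 with ORY-1001, against 1.01, 1.06 and 1.57 in controls. It rose by 2.58 on the log2 scale in H82 (SE 0.113, adjusted p = 4.16e-08) and by 3.33 in H211 (adjusted p = 6.58e-09).

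RFX5, the DNA-binding subunit of the RFX complex (chromosome 1, 151340640 to 151347357), was well expressed in both lines and higher in H82. It was at 50.7, 52.2 and 61.0 in H82 with ORY-1001, against 44.7, 48.8 and 46.2 in H82 controls. The H211 values were 26.2, 24.9 and 28.3 with ORY-1001, against 29.1, 23.2 and 26.8 in H211 controls. The treated H82 libraries lay above every H82 control, and the H211 groups overlapped. The log2 fold change was 0.22 in H82 (95% interval 0.026 to 0.418, adjusted p = 0.0654) and 0.0093 in H211 (-0.186 to 0.205, adjusted p = 0.965). Without the 4 libraries with high LYZ the H82 value was 0.38. That value rests on 1 treated H82 library, number 3, which had the highest RFX5 (61.0). Leaving out 1 library in turn gave 0.14 to 0.27 in H82, lowest without that library. The H82 effect passed without H211 control 2 (adjusted p = 0.0379) or treated H82 library 1 (0.0499) and with each line fitted alone (0.0465). Over the alternatives its adjusted p reached 0.236. The difference of the effects, H211 minus H82, was -0.21 (adjusted p = 0.228), and -0.51 without the 4 libraries, again with 1 treated H82 library. Between the controls RFX5 was lower in H211 than in H82 (log2 fold change -0.80, adjusted p = 4.52e-06).

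RFXAP, the RFX-associated protein (chromosome 13, 36819224 to 36829104), showed the same order of lines. It was at 9.96, 9.95 and 9.65 in H82 with ORY-1001, against 11.4, 12.3 and 11.1 in H82 controls, with no overlap. Treated H211 libraries had 5.45, 5.03 and 5.89, against 5.29, 5.77 and 4.68 in H211 controls, with overlap. The log2 fold change was -0.21 in H82 (interval -0.392 to -0.0367, adjusted p = 0.0516) and 0.049 in H211 (adjusted p = 0.737). Over the alternatives the adjusted p in H82 ran from 0.0289 to 0.228, and it passed without H211 control 2 (0.0433), H211 control 3 (0.035) or treated H211 library 2 (0.0485). With all libraries kept it passed at a pseudocount of 5 (0.0289), with a filter at a level of 5 (0.048), with eBayes without a trend (0.0412), with array weights (0.0377) and with each line fitted alone (0.0367). H211 controls were lower than H82 controls (log2 fold change -1.01, adjusted p = 2.23e-07). RFXANK, the remaining subunit of the complex, is no member, but it was the most abundant of the 3, at 96.7 ± 6.71 in H82 with ORY-1001 and 108 ± 0.188 in H82 controls. In H211 cells it was at 74.6 ± 1.68 with ORY-1001 and 68.7 ± 2.58 in controls. It fell in H82 (log2 fold change -0.16, adjusted p = 0.0221) and did not pass the test in H211 (0.12, adjusted p = 0.127).

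**Figure D1:**
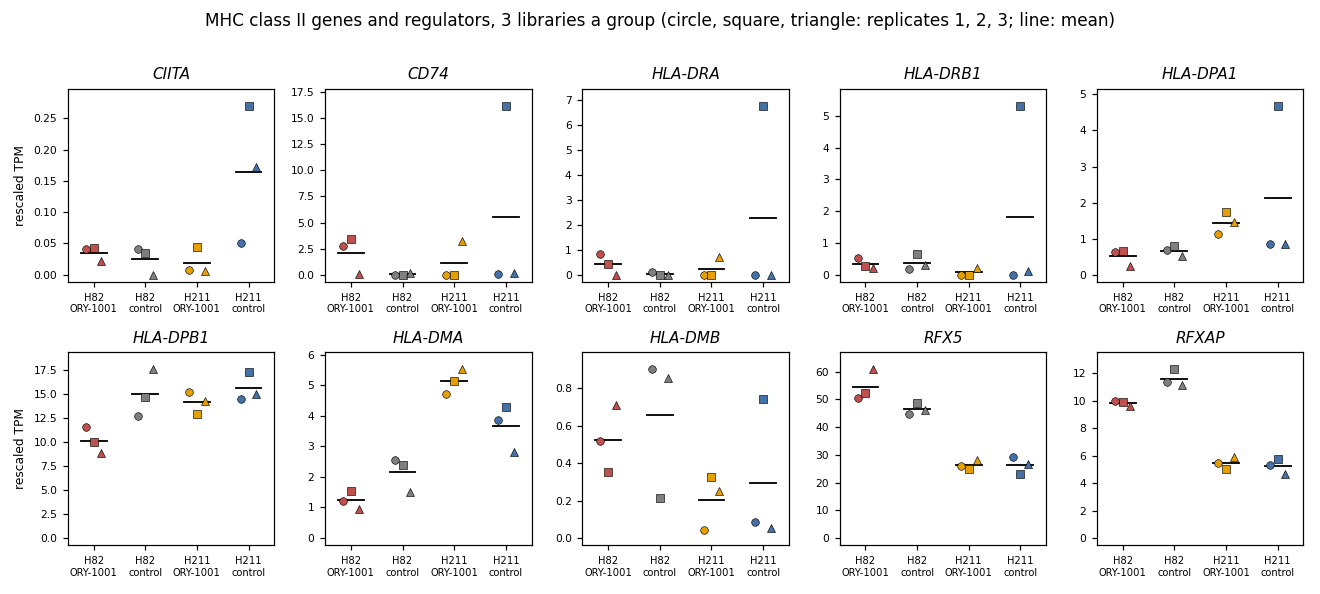
Deposited level (rescaled TPM, linear axis, each panel with its own scale) of the 10 genes in H82 with ORY-1001, H82 control, H211 with ORY-1001 and H211 control. Points are single libraries and lines are means; CD74, HLA-DRA, HLA-DRB1 and HLA-DPA1 peak in H211 control 2 (16.2, 6.78, 5.33 and 4.69), while RFX5 and RFXAP separate the lines.

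CD74 (chromosome 5, 150401637 to 150412929) was carried by the 4 libraries with high LYZ. It was at 2.74, 3.45 and 0.0298 in H82 with ORY-1001, against 0, 0 and 0.129 in H82 controls. In H211 it was at 0, 0 and 3.23 with ORY-1001, against 0.0793, 16.2 and 0.165 in controls. Its 4 values above 1 fell in the same 4 libraries as LYZ, and no other library exceeded 0.165, so it passed the filter through these 4 alone. The log2 fold change was 1.31 in H82 (interval -0.846 to 3.46, adjusted p = 0.32) and -0.79 in H211 (-2.94 to 1.37, adjusted p = 0.642). Without H211 control 2 the H211 value was 0.53 (adjusted p = 0.69), and without the 4 libraries CD74 no longer passed the filter. In bulk RNA, fewer cells of a type and less RNA per cell cannot be told apart.

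HLA-DRA, the alpha chain of DR (chromosome 6, 32439842 to 32445046), followed CD74. It was at 0.845, 0.44 and 0 in H82 with ORY-1001, against 0.12, 0 and 0 in H82 controls. The H211 values were 0, 0 and 0.71 with ORY-1001, against 0, 6.78 and 0 in H211 controls. It was listed at 0 in 7 of the 8 libraries with low LYZ. HLA-DRB1, the main DR beta chain (chromosome 6, 32578769 to 32589848), was at 0.517, 0.265 and 0.218 in H82 with ORY-1001, against 0.181, 0.659 and 0.299 in H82 controls. Treated H211 libraries had 0, 0 and 0.224, against 0, 5.33 and 0.108 in H211 controls. The groups overlapped in both lines for both genes. H211 control 2 held 76.2% of the summed level of HLA-DRA over the 12 libraries and 68.3% of that of HLA-DRB1, and 62.3% of that of CD74. HLA-DRA and HLA-DRB1 failed the filter, and with no filter their adjusted p was 0.809 and 1 in H82 and 0.657 and 0.505 in H211. HLA genes resemble each other in sequence and the counting rule for shared reads is not given here, which leaves the level of each one uncertain.

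**Figure D2:**
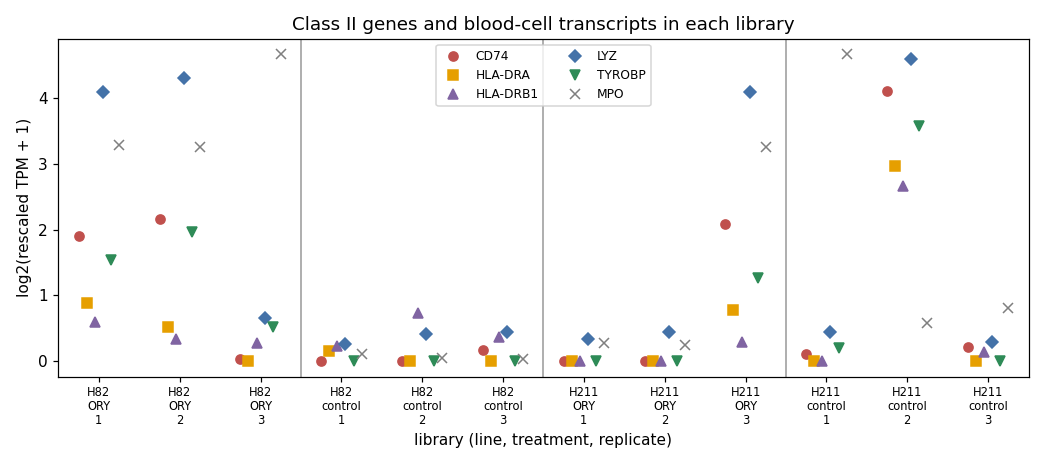
Level on the log2(rescaled TPM + 1) scale of CD74, HLA-DRA and HLA-DRB1 and of the blood-cell transcripts LYZ, TYROBP and MPO in each of the 12 libraries, in 4 groups of 3. CD74 and LYZ are high in the same 4 libraries; MPO is also at 24.26 in treated H82 library 3 and 24.27 in H211 control 1, where CD74 is at 0.0298 and 0.0793.

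Over all tested genes outside the members, the 3 whose profile was most like that of CD74 were TYROBP, a signalling adaptor of myeloid and natural killer cells, LAPTM5, a lysosomal protein of blood cells, and LYZ. Their Pearson correlations with CD74 over the 12 libraries were 0.979, 0.969 and 0.935 on the log2 scale. As deviations from the group means the values were 0.983 for TYROBP, 0.968 for LYZ and 0.965 for LAPTM5. For HLA-DRA the nearest genes were TYROBP (0.931), LAPTM5 (0.915) and GMFG (0.822), and as deviations CLEC7A (0.993), GBP1P1 (0.979) and TYROBP (0.971). These correlations rest on few high libraries and are a description. MPO, the myeloperoxidase of neutrophil precursors, did not follow CD74 (0.151 over the 12 libraries). For CIITA the nearest genes were SF3B1 (0.890), PTPRK (0.832) and ZNF221 (0.828), over a range of CIITA from 0 to 0.271. As deviations from the group means they were MT1M (0.947), NAPB (0.946) and PCBP1-AS1 (0.942).

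The whole list of 22 myeloid markers summed to 46.5 to 62.0 in H82 with ORY-1001 and 3.12 to 5.57 in H82 controls. In H211 it summed to 3.61 to 56.9 with ORY-1001 and 4.31 to 177 in controls. Of its 12 tested genes 5 rose and 0 fell in H82, where 19.1% and 23.9% of all tested genes did. TYROBP, PRTN3, ELANE and LST1 were listed at 0 in every H82 control and passed the filter through other libraries. They could not fall in H82, so these counts cannot be set against those shares. In H211 limma called 0 of the 12, where 18.6% of all genes were called, and 0 had an unadjusted p under 0.05. Among the 22, the 4 libraries with high LYZ held 9 to 11 at a level of 1 or more and listed 3 to 5 at 0, and the other 8 libraries held 1 to 6 and listed 4 to 14 at 0. Those 8 were not alike. Treated H82 library 3 and H211 control 1 summed to 46.5 and 45.2, and the rest of the 8 to at most 5.57. Both of these libraries stay in where the 4 with high LYZ are left out, so that setting does not remove all myeloid transcripts. The 14 lymphoid markers summed to 13.6 to 15.3 in H82 with ORY-1001 and 22.3 to 23.9 in H82 controls, and to 36.4 to 44.2 in H211 with ORY-1001 and 42.6 to 60.4 in H211 controls. The 12 globin and other erythroid markers ranged widely, from 3.86 to 216 in H82 with ORY-1001 and from 64.4 to 79.5 in H82 controls. They ranged from 0.447 to 65.6 in H211 with ORY-1001 and from 57.9 to 197 in H211 controls. The lowest sums were in the treated libraries with high LYZ, at 4.15 and 3.86 in H82 libraries 1 and 2 and 0.447 in H211 library 3. The highest were 216 in treated H82 library 3, 197 in H211 control 1 and 177 in H211 control 2, which also has high LYZ. TYROBP was at 1.9, 2.91 and 0.439 in H82 with ORY-1001 and listed at 0 in the 3 H82 controls. In H211 it was at 0, 0 and 1.41 with ORY-1001, against 0.146, 10.9 and 0 in controls. H211 control 2 differed from the other libraries with high LYZ in which markers it held. The calgranulins S100A8 and S100A9 were at 58.1 and 57.7 there and at most 0.694 and 0.493 in any other library. CTSS, the cathepsin that trims CD74 in antigen-presenting cells, was at 7.62 there and at most 0.53 elsewhere. MPO was at 8.71 and 8.55 in treated H82 libraries 1 and 2 and at 8.57 in treated H211 library 3, against 0.493 in H211 control 2. CD74 stood at 17.2%, 18.4% and 20.1% of the LYZ level in those 3 treated libraries and at 70.6% in H211 control 2. PTPRC, the pan-leukocyte CD45, reached 1.02 in treated H211 library 3 and 1.24 in H211 control 2 and at most 0.36 elsewhere. The part of blood-cell RNA in the CD74 and DR values was not tested.

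The stretch upstream of the RefSeq start is shown for 4 genes. CD74 and HLA-DRB1 had 62.3% and 68.3% of their summed level in H211 control 2. HLA-DPB1 was highest in H82 control 3 (17.7), with H211 control 2 next (17.3), and HLA-DMA was highest in treated H211 library 3 (5.54). Each line gives the 150 bases before the start on the gene's own strand (RefSeq, GRCh38.p14), with capitals for the X motif AGCAAC, the X2 core CGTCA and the Y box CCAAT, each also in the reverse direction.
HLA-DRB1, chr6:32589849-32589998, minus strand: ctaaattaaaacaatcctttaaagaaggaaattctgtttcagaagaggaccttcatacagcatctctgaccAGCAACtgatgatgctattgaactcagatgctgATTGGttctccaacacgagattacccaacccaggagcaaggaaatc
CD74, chr5:150412911-150413060, minus strand: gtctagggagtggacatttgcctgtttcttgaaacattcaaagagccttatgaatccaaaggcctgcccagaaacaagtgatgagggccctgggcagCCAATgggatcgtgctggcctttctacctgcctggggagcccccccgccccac
HLA-DPB1, chr6:33075840-33075989, plus strand: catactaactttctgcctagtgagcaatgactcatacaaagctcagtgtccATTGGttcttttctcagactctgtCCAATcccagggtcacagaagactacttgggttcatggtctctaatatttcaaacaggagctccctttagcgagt
HLA-DMA, chr6:32953098-32953247, minus strand: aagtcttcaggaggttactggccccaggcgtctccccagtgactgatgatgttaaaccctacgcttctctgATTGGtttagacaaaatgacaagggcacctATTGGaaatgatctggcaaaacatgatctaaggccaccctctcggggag

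Promoter windows of 250 bases before to 50 after the start matched 8 of the 10 genes by symbol. An X motif followed on the same strand by a reversed Y box, 25 to 45 bases from start to start, was found on either strand in 0.248% of 35116 RefSeq windows. Among the members with a window HLA-DRB1 held it, with 33 bases between the starts and the X motif at position -79. The 8 genes have 11 windows, and the other motifs were counted per window, for members as for the background. A Y box on either strand was found in 6 of the 11 windows and in 34.6% of all windows, the X motif in 5 of the 11 and 12.8%, and an X2 core in 7 of the 11 and 24.6%. The gamma-activated site TTCNNNGAA was found in 0 of the 11 and 7.66%, and the E box CACGTG in 2 of the 11, both of RFX5, and 7.26%. Windows of RFX5 overlap, so these 2 hold the same E box, and they also share the same X2 core. Counted by gene, the X motif was in 4 of the 8, an X2 core in 5, a Y box in 6 and the E box in 1. These are matches of letters in these windows and say nothing of binding.

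HLA-DPB1, the DP beta chain (chromosome 6, 33075926 to 33087201), was the most abundant chain among the members and was found in every library. It was at 11.6, 10.0 and 8.84 in H82 with ORY-1001, against 12.8, 14.7 and 17.7 in H82 controls, with no overlap. The H211 values were 15.2, 13.0 and 14.3 with ORY-1001, against 14.6, 17.3 and 15.1 in H211 controls, with overlap. It fell in H82 (log2 fold change -0.52, SE 0.121, adjusted p = 0.00462), a ratio of means of 0.673. That call held in all 25 alternatives (adjusted p = 0.00221 to 0.0289), and without the 4 libraries with high LYZ the value was -0.70 (adjusted p = 0.0222). In H211 the log2 fold change was -0.13 (interval -0.4 to 0.132, adjusted p = 0.5). The difference of these effects was 0.39 (adjusted p = 0.106), and 0.50 without H82 control 1 (adjusted p = 0.0444). The controls of the lines had nearly the same mean, at 15.7 ± 1.46 in H211 and 15.1 ± 2.46 in H82 (SD, n = 3 each; adjusted p = 0.658). With ORY-1001, H211 was higher than H82 by 0.45 on the log2 scale (adjusted p = 0.00473).

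HLA-DPA1, the DP alpha chain (chromosome 6, 33064569 to 33080775), was far below its partner. It was at 0.622, 0.657 and 0.248 in H82 with ORY-1001, against 0.678, 0.785 and 0.511 in H82 controls. Treated H211 libraries had 1.12, 1.75 and 1.46, against 0.858, 4.69 and 0.841 in H211 controls. The value of 4.69 was in H211 control 2, the library with the highest CD74. HLA-DPB1 stood 7.42 to 35.7 times above HLA-DPA1 in 11 libraries and 3.69 times above it in that one. The log2 fold change of HLA-DPA1 was -0.14 in H82 (interval -0.915 to 0.628, adjusted p = 0.788) and -0.15 in H211 (-0.918 to 0.624, adjusted p = 0.824). Without H211 control 2 the H211 value was 0.39 (adjusted p = 0.136). HLA-DPA1 reached 1 in 4 libraries, all of H211, and at most 0.785 in H82. It passed the filter only through the line where it was high, so its tests between the lines are favoured by that choice. Between the lines, H211 minus H82, it was at 0.70 in controls (adjusted p = 0.0851) and 0.70 with ORY-1001 (0.0866). The first of these passed without H211 control 1 (0.0313) or 3 (0.0302), and the second without H211 control 2 (0.000878) or, with all libraries, at a pseudocount of 0.1 (0.0369). Both genes lie head to head, and their whole spans, introns included, overlap by 4850 bases on the annotation. Overlap of their exons was not computed, so how many reads there need strand to be assigned is unknown.

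HLA-DMA, a chain of the peptide-exchange dimer DM (chromosome 6, 32948613 to 32969094), had drug effects of opposite sign in the lines. It was at 1.22, 1.53 and 0.967 in H82 with ORY-1001, against 2.56, 2.4 and 1.52 in H82 controls, where 1 treated library lay just above the lowest control. In H211 it was at 4.72, 5.16 and 5.54 with ORY-1001, against 3.88, 4.29 and 2.81 in controls, with no overlap. It fell in H82 (log2 fold change -0.49, SE 0.161, adjusted p = 0.0299), and the H211 value did not pass the test (0.41, interval 0.0551 to 0.764, adjusted p = 0.104). The difference of the effects passed (H211 minus H82 0.90, adjusted p = 0.0114) and did so in all 23 alternatives that kept the gene (0.00423 to 0.0456). The fall in H82 alone was less firm. It missed the threshold without H82 control 1 or 2 or treated H82 library 1 or 3 (adjusted p = 0.0667 to 0.108), and also without the 4 libraries with high LYZ (-0.67, adjusted p = 0.0753). It missed it as well with a pseudocount of 5 (0.0529), with each line fitted alone (0.0534) and with no filter (0.0704). HLA-DMA was 4.15-fold higher in H211 than in H82 with ORY-1001 and 1.70-fold higher in controls (log2 fold change 1.46 and 0.56, adjusted p = 4.47e-06 and 0.0068). The locus overlaps BRD2 on the opposite strand by 435 bases and AL645941.2 on its own strand by 4510 bases.

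HLA-DMB, the partner chain (chromosome 6, 32934629 to 32941070), stayed under 1 in every library and failed the filter. It was at 0.517, 0.353 and 0.708 in H82 with ORY-1001, against 0.904, 0.216 and 0.853 in H82 controls. The H211 values were 0.0404, 0.326 and 0.25 with ORY-1001, against 0.0844, 0.742 and 0.0526 in H211 controls. All groups overlapped their neighbours in the order of means, from H82 control and H82 with ORY-1001 down to H211 control and H211 with ORY-1001.

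Counted together, 2 of the 6 tested members were called in H82, where 43.0% of all tested genes were called. Both were lower with ORY-1001, as were 23.9% of all genes, and 0 were higher, against 19.1%. In H211 limma called 0 of the 6, where 18.6% of all genes were called (8.95% higher and 9.61% lower), and 1 member, HLA-DMA, had an unadjusted p under 0.05. The median log2 fold change of the 6 was -0.18 in H82 and -0.062 in H211, against -0.016 and -0.0021 over all tested genes. Groups that did not overlap were found for 3 of the 6 members in H82 (HLA-DPB1, RFX5 and RFXAP) and 52.3% of tested genes, and in H211 for HLA-DMA and 35.4% of tested genes. The difference of the drug effects was called for HLA-DMA, higher in H211, and for 32.1% of all tested genes (17.8% higher and 14.3% lower). Between the controls, H211 against H82, HLA-DMA was higher and RFX5 and RFXAP were lower, where 80.5% of all genes were called, 39.7% higher and 40.8% lower. With ORY-1001, HLA-DMA and HLA-DPB1 were higher in H211 and RFX5 and RFXAP were lower, where 80.2% were called, 39.7% higher and 40.6% lower. Groups did not overlap for 81.7% of genes between controls and for 81.0% between treated cells. Taken in either direction, none of the members' shares of calls stood above that of all genes in the fit as reported. In some other settings this turned. With each line fitted alone, 3 of 4 tested members were called in H82, beside 6244 of 13406 tested genes.

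**Figure D3:**
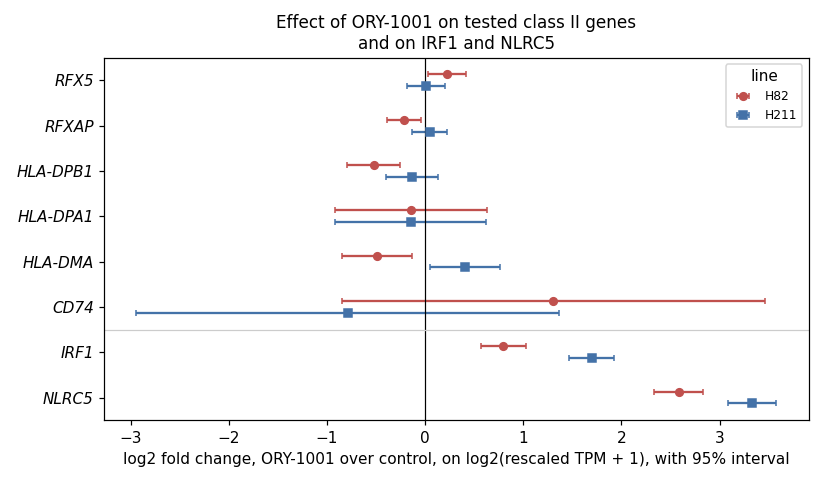
Log2 fold change of ORY-1001 over control, with its 95% interval, for the 6 tested members and for IRF1 and NLRC5 in H82 (circles) and H211 (squares). The members other than CD74 lie between -0.52 and 0.41, and CD74 has intervals over 4 units wide; NLRC5 lies at 2.58 and 3.33.

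By rank, RFX5 and HLA-DPB1 were the members that stood above the middle of the tested genes in all 4 groups. RFX5 stood above 84.3% of tested genes in H82 with ORY-1001 and above 81.8% in H82 controls, and above 71.8% in H211 with ORY-1001 and 71.7% in H211 controls. RFXAP stood above 51.6% in H82 with ORY-1001 and 53.8% in H82 controls, and above 40.2% in H211 with ORY-1001 and 38.9% in H211 controls. HLA-DPB1 stood above 52.3% in H82 with ORY-1001 and between 59.5% and 61.2% in the other groups. CIITA stood above 0.932% to 4.32% of them.

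Of the other class II chains taken as a list, 12 of 14 symbols were in the table and 3 passed the filter. HLA-DPB2, a transcribed pseudogene next to HLA-DPB1, ranged from 10.9 to 13.2 in H211 with ORY-1001, against 5.84, 5.88 and 6.15 in H211 controls. It rose 1.96-fold in H211 (log2 fold change 0.86, adjusted p = 7.73e-05), and it stayed at or under 0.106 in all H82 libraries. It was the only one of the 3 called for the drug, where 43.0% of all tested genes were called in H82 and 18.6% in H211. HLA-DQB1, a DQ beta chain named after its values were seen, was at 36.0, 31.4 and 34.0 in H82 with ORY-1001, against 40.0, 40.7 and 41.8 in H82 controls. In H211 it averaged 0.669 ± 0.249 with ORY-1001 and 0.782 ± 0.222 in controls (SD, n = 3 each). Its controls were 52.2-fold higher in H82 than in H211 (adjusted p = 1.08e-11), and its drug effect in H82 was -0.27 (adjusted p = 0.0856). HLA-DQB1 reached 1 in 7 libraries, every one of H82 and H211 control 2 (1.02). It passed the filter through the line where it was high, so its test between the lines is favoured by that choice. HLA-DQB2 showed the same line difference, at 7.81 ± 1.16 in H82 with ORY-1001 and 9.64 ± 0.969 in H82 controls, and under 0.5 in H211. HLA-DQA1, the alpha chain that pairs with DQ beta, reached at most 1.03 in any library, so transcripts of the DQ beta chain in H82 stood beside few of its alpha chain. How reads of these similar genes were divided is not known.

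**Figure D4:**
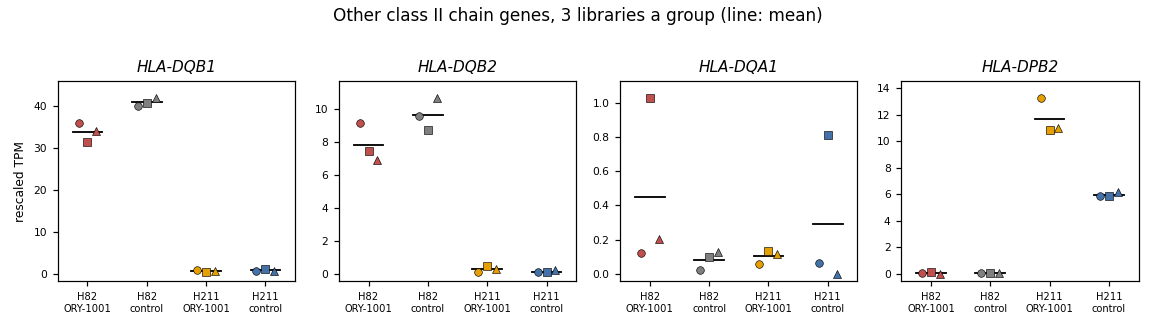
Deposited level (rescaled TPM, linear axis) of HLA-DQB1, HLA-DQB2, HLA-DQA1 and HLA-DPB2 in H82 with ORY-1001, H82 control, H211 with ORY-1001 and H211 control; points are libraries and lines are means. HLA-DQB1 is found in H82 at 31.4 to 41.8, and HLA-DPB2 in H211, at 10.9 to 13.2 with ORY-1001 and 5.84 to 6.15 in controls.

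Inputs to CIITA changed in part. IRF1, a transcription factor that acts on an interferon-responsive CIITA promoter, rose 3.51-fold in H211, to 29.7 ± 1.56 with ORY-1001, against 8.46 ± 0.629 in controls (SD, n = 3 each; adjusted p = 9.12e-07). It rose 2.36-fold in H82, to 2.88 ± 0.541 with ORY-1001, against 1.22 ± 0.121 in controls (SD, n = 3 each; adjusted p = 0.000105). USF1, which binds an E box there, rose 1.68-fold in H82 (adjusted p = 4.11e-05). PIAS1, a SUMO ligase of cytokine signalling, fell in both lines, to 0.646 of its control mean in H82 and 0.702 in H211 (adjusted p = 7.74e-05 and 0.00161). Of the 17 tested genes of this list, 5 rose and 5 fell in H82, where 19.1% and 23.9% of all tested genes did, and 2 rose and 1 fell in H211, where 8.95% and 9.61% did. The median log2 fold change of the list was 0.15 in H82 and 0.060 in H211. CIITA stayed under 0.05 in the treated libraries of both lines beside these values.

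Of 17 tested partners of CIITA at the promoter, 1 rose and 9 fell in H82, where 19.1% of all tested genes rose and 23.9% fell. In H211 2 rose and 3 fell, against 8.95% and 9.61% of all genes, and the median log2 fold changes of the list were -0.16 in H82 and -0.035 in H211. KAT2B, an acetyltransferase, fell to 3.11 ± 0.316 in H82 with ORY-1001, against 6.09 ± 0.0611 in H82 controls, and to 21.5 ± 0.752 in H211 with ORY-1001, against 34.6 ± 0.682 in H211 controls (SD, n = 3 each; adjusted p = 2.9e-06 and 3.11e-05). NFYA, the NF-Y subunit that contacts the Y box, fell in H82 to 0.73 of its control mean (adjusted p = 1.01e-05), and NCOA1, a coactivator, to 0.603 (adjusted p = 0.000812). In H211 NCOA3, a related coactivator, fell to 0.623 of its control mean (adjusted p = 0.000219) and CARM1, an arginine methyltransferase, rose 1.32-fold (adjusted p = 0.00145).

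Of the 19 genes of the endosomal processing route 16 were tested. Among them 5 rose and 5 fell in H82 (19.1% and 23.9% of all tested genes), and 2 rose and 5 fell in H211 (8.95% and 9.61%), with median log2 fold changes of 0.053 and -0.066. CTSB, cathepsin B, fell to 35.5 ± 0.739 in H82 with ORY-1001, against 64.6 ± 2.09 in H82 controls, and to 82.3 ± 3.1 in H211 with ORY-1001, against 103 ± 7 in H211 controls (SD, n = 3 each; adjusted p = 4.81e-07 and 0.00163). CTSH, cathepsin H, fell in H82 to 0.572 of its control mean and CD63, a tetraspanin of late endosomes, to 0.766 (adjusted p = 6.67e-06 and 2.07e-05). In H211 SPPL2A, the protease that removes the last membrane stub of CD74, fell to 0.631 of its control mean (adjusted p = 0.0011), and LAMP2, a lysosomal membrane protein, to 0.822 (adjusted p = 0.00319).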

How the data were processed

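Values were the deposited signal, which the authors made as TPM per gene symbol and which appear to have been rescaled between libraries, since column totals ran from 967415 to 1111988. The build was hg38, and the tools named, per the submitters' processing notes, are R 4.0.4 and sleuth 0.30.0, Salmon 1.1.0, DESeq2, Subread 1.5.2 and its featureCounts, STAR 2.5.2b and Trimmomatic 0.36; their roles and the annotation are not given in the sources used here. Per the labels' protocols, libraries were made from oligo(dT)-enriched mRNA with the NEBNext Ultra II kit. The planned tests assumed TPM; the same log-scale tests were used on this signal. No column was without a sample (0 columns).

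One model with 4 group means was fitted in R 4.3.3 by limma 3.58.1 (trended eBayes) to log2(TPM + 1) of 12 libraries, for genes at 1 or more in at least 3. It was tested on simulated data. Two-sided p-values were adjusted by Benjamini-Hochberg over 15456 genes and called under 0.05. Members and lists were chosen with earlier results of these data known. Named were all members, NLRC5, the checks of the labels, blood markers that moved with a member, the 3 genes most like CD74, CIITA and HLA-DRA, and the 3 called genes with the smallest p in each other list and line. The other HLA genes, RFXANK, CTSS, S100A8 and S100A9 were added after their values were seen. Not every gene named by this rule is reported here. Ratios are of group means. Coordinates are from GENCODE release 29.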

Additional observations from a re-analysis of the deposited data

Results flagged for a closer look

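For 17 of the genes reported, the effect of ORY-1001 differed between the lines in the test of the difference itself (limma adjusted p under 0.05, where 32.1% of all tested genes passed). Many of the genes reported were named for a called effect in a single line, which favours such a difference. The 17 therefore cannot be set against that share. Values are log2 fold changes, H211 minus H82. HLA-DMA was the only member among them, at 0.897. NLRC5, which rose in both lines, differed by 0.748. Among the inputs to CIITA, IRF1 differed by 0.903 and USF1 by -0.722. Among its partners, RFXANK differed by 0.275, NFYA differed by 0.378, CARM1 by 0.49, NCOA1 by 0.481 and NCOA3 by -0.834. In the processing route CTSB differed by 0.527, CTSH by 0.623 and CD63 by 0.1996. The pseudogene HLA-DPB2 differed by 0.895, and BATF3, a factor of dendritic cells that is also expressed in these lines, by 1.2.

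The blood-cell transcripts LST1, SRGN and MPO differed by -1.55, -3.73 and -4.42. SRGN was at 14.4, 14.1 and 11.2 in H82 with ORY-1001, against 0.285, 0.96 and 0.711 in H82 controls. In H211 it was at 0.49, 0.51 and 16.0 with ORY-1001, against 11.9, 4.9 and 0.763 in controls. The CD74 values above 1 fell in 4 of the 6 libraries with SRGN above 1.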

How the results depend on the processing

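Without the 4 libraries with high LYZ, which leaves 1 treated H82 library that is assumed to vary like the other groups, calls over all genes were 3982 in H82, 1189 in H211 and 2704 for the difference. With this setting 4 members were tested, and every comparison that uses treated H82 rests on that 1 library. Among genes at 5 or more in 3 libraries 0 members were called for the difference, since HLA-DMA was not tested there, and with no filter 1 was called in H82. H211 control replicate 2 was the single library with TYROBP at 5 or more. Without it, 4 of the 6 tested members were called in H82, beside 6526 of 15337 tested genes, a larger share than that of all genes. Leaving out each library in turn gave 1 to 4 called members in H82, 0 in H211, 1 to 2 for the difference, 3 to 4 between controls and 4 to 5 between treated cells. Calls over all genes then ran from 5728 to 6647 in H82, 1960 to 3042 in H211 and 4299 to 4614 for the difference. Between the lines they ran from 11989 to 12395 in controls and 11936 to 12355 in treated cells. Signs turned only among uncalled values. RFX5 in H211 was -0.050 with totals without mitochondrial genes, -0.000202 with array weights, -0.12 without the libraries with high LYZ and -0.077 without the one with high TYROBP, and -0.077 to 0.081 leaving out 1 library. RFXAP in H211 was -0.0035 without mitochondrial genes and -0.018 to 0.11 leaving out 1 library. HLA-DPB1 between controls was -0.011 without the libraries with high LYZ or TYROBP, and -0.045 to 0.17 leaving out 1. HLA-DPA1 in H211 was 0.39 without the library with high TYROBP (-0.42 to 0.39 leaving out 1). Its difference between the effects was 0.28 with a pseudocount of 0.1, 0.00501 with quantile normalization and 0.54 without that library (-0.28 to 0.54 leaving out 1). CD74 in H211 was 0.53 without it (-1.48 to 0.53). The cause was not tested. Totals without mitochondrial genes moved the median of all genes between controls to 0.14, and gave 961 genes higher and 2016 lower in H211, against 1383 and 1485 as reported. Same-numbered libraries did not deviate together (correlations -0.080 to 0.045). A replicate block gave 6219 calls in H82 and 2204 in H211, and between the lines ended the calls of HLA-DMA in controls (adjusted p = 0.0716) and HLA-DPB1 in treated cells (0.0832). The unknown depth limits every value under 1.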

Other observations

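The remaining class II genes were too low to be tested, and several had their highest value in H211 control replicate 2. HLA-DRB5 was at 0.835 there and at most 0.0855 elsewhere, and HLA-DRB6 at 0.236 there and listed at 0 elsewhere. HLA-DOA was at 0.471 there, but also at 0.398 in treated H211 library 1, where LYZ was low, and at 0.232 in treated H211 library 3. HLA-DOB, a chain of the DM antagonist DO, was at 0.3, 0.276 and 0.185 in H82 with ORY-1001 and listed at 0 in all 3 H82 controls. In H211 it was at 0.0525, 0.122 and 0.0904 with ORY-1001, against 0.0551, 0.133 and 0.138 in controls.

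The list of 12 dendritic-cell markers summed to 22.5 to 23.7 in H82 with ORY-1001 and 19.4 to 21.0 in H82 controls, and to 18.0 to 20.8 in H211 with ORY-1001 and 9.45 to 10.2 in H211 controls. Of the 12, 3 passed the filter and 9 did not. BATF3 was at 15.8 ± 0.247 in H82 with ORY-1001 and 12.2 ± 0.361 in H82 controls, and rose 3.45-fold in H211, to 12.3 ± 0.28 with ORY-1001, against 3.55 ± 0.607 in controls (SD, n = 3 each; limma adjusted p = 0.00657 and 4.17e-07). LAMP3, a lysosomal protein of mature dendritic cells, rose 1.98-fold in H211 (adjusted p = 0.0279). Of the 14 lymphoid markers 4 passed the filter. CORO1A, an actin-binding protein of leukocytes, fell in H82 to 0.566 of its control mean (adjusted p = 0.000679). Limma called none of the other 3 there, where 43.0% of all tested genes were called. In H211 limma called 0 of the 4, where 18.6% of all tested genes were called, and 2 had an unadjusted p under 0.05. With 4 genes these counts say little of the list.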
